A study of Mus musculus with 18 samples.

Results

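The messenger RNAs of 73 spliceosome and splicing regulator proteins were followed through cell bodies and axons of cultured mouse motoneurons, with and without knockdown of Smn. They are the genes whose annotated symbol begins with Snrp, Srsf, Sf3a, Sf3b, U2af, Prpf, Lsm or Hnrnp, with a number required after Srsf, Sf3a, Sf3b and Lsm. One gene of the Hnrnp series is not analysed here. They make up 73 of the 18191 genes measured, and all 73 symbols matched a RefSeq gene. By role they are 6 Sm proteins, 12 Lsm proteins, 27 proteins specific to single snRNPs or bound to them, 10 SR proteins and 18 hnRNP proteins. Snrpd1 and Snrpd2, the other common Sm genes, are not among them, because the probe sets found for them list several genes.

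RNA came from mouse spinal cord motoneurons taken at E12.5, enriched by panning on the p75 receptor and cultured over 7 days in microfluidic chambers with 2 sides. Only the axonal side received BDNF (20 ng/ml), whereas CNTF (5 ng/ml) was present on both sides. The somatodendritic and the axonal side were each sampled in 3 conditions: untreated wild-type cultures, cultures with a lentivirus lacking an insert (empty vector), and cultures with a lentivirus expressing a short hairpin RNA against Smn. Each of the 6 groups had 3 Affymetrix arrays, hybridised with RNA amplified in 2 rounds, and the labels leave unsaid whether arrays of one group stem from independent cultures. All p-values below therefore measure the spread between arrays, which may be technical. Titles of all control arrays begin with Gr and those of all knockdown arrays with Nr, and the labels do not explain this. A knockdown difference therefore cannot be told apart from a difference between these title series.

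Splicing is carried out by small nuclear ribonucleoproteins (snRNPs), each built from a small nuclear RNA, a ring of Sm or Lsm proteins and proteins found in that particle alone. The SMN protein, made from Smn1, loads the Sm ring onto these RNAs in the cytoplasm before they return to the nucleus. SR and hnRNP proteins bind pre-mRNA and bias which sites are used, and several of them also travel with or control mRNA in the cytoplasm of neurons. The comparison of knockdown with empty vector addresses which of these mRNAs differ with the hairpin against Smn. That of the compartments addresses which of them are found in axons.

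The start regions of 4 members called in the knockdown cell bodies whichever array was left out are shown, because these carry the values described below: Lsm3 and Srsf12 were lower, and Snrpa1 and Snrpb2, partners in the U2 snRNP, were higher. Each is the stretch of 150 bases before the RefSeq start on the plus strand of GRCm38.p6. Capitals mark matches, searched on both strands, to the ETS family core CCGGAAG, to the GC box motif GGGCGG, to the CCAAT box, to the E-box motif CACGTG or to the TATA box motif TATAAA. The windows are chr6:91515885-91516034 for Lsm3, chr4:33209122-33209271 for Srsf12, chr7:66060186-66060335 for Snrpa1 and chr2:143062919-143063068 for Snrpb2.
Lsm3: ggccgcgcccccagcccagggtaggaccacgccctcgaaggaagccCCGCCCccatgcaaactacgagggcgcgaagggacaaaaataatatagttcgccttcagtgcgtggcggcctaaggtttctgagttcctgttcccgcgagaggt
Srsf12: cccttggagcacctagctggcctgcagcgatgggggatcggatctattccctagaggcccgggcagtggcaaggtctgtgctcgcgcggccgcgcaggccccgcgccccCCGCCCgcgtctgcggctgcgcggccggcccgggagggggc
Snrpa1: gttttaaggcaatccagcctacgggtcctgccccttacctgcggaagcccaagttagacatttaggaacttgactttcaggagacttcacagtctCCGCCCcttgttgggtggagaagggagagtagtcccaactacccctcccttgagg
Snrpb2: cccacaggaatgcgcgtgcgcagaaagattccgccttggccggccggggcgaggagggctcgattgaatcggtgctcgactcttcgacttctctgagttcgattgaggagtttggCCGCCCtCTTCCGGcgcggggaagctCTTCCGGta

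A GC box stood in all 4 stretches, and the only ETS family core matches among them were the pair in Snrpb2. Windows of 300 bases, 250 before and 50 after the start, were found for 63 members and for 14450 of all genes measured. The ETS family core was present in 18 of the 63 members (28.6%) and in 13.8% of all genes. The CCAAT box was present in 49.2% of members and 38.2% of all genes, and the GC box in 66.7% and 54%. CACGTG (9.52% against 9.02%) and TATAAA (7.94% against 9.87%) were about as frequent in both. The median GC content was 60% in members and 58.67% in all genes, and the median number of CpG pairs was 25 and 17. These shares describe letters in a window and carry no test.

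Values are the authors' log2 expression values, so a difference of 1 is a doubling, and a gene is read from whichever of its probe sets was brightest on average across all 18 arrays. The arrays of each compartment share one distribution of values, with an SD over probe sets of 2.26 for somatodendritic and 1.87 for axonal ones, so levels set across compartments rest on separate scales. A gene was above background in a group when every array exceeded the 95th percentile of 130 probe sets. These were chosen by symbol as receptors for smell, pheromones or taste, keratin-associated proteins or defensins. Where a gene was not above background, a fold is a lower bound against that level. On somatodendritic arrays 9777 to 10254 genes were above it, against 8701 to 9735 on wild-type, 6531 to 9313 on empty vector and 5327 to 6967 on knockdown axonal arrays. Axonal knockdown replicate 1 (r = 0.539) and axonal empty vector replicate 2 (r = 0.705) correlated least, across genes, with the somatodendritic controls among the arrays of their groups. As a group, axonal knockdown arrays were lowest, at 0.539 to 0.712, against 0.705 to 0.884 on empty vector and 0.814 to 0.891 on wild-type axonal arrays. Smn1 itself was near background on all groups, at 4.99 to 5.20 on somatodendritic knockdown and 5.02 to 5.38 on empty vector arrays, so these arrays give no check of the knockdown. All 8 pan-neuronal markers were above background in the somatodendritic groups, but of 11 motoneuron markers only 3 were, and Isl1, Mnx1 and Chat were not.

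Most of the 73 mRNAs were detected in cell bodies, and fewer in axons. Above background were 66 in wild-type, 67 in empty vector and 69 in knockdown cell bodies. In axons the number was 62 in wild-type, 48 in empty vector and 39 in knockdown arrays. The number of all genes above background was also lowest on axonal knockdown arrays, and its part in these counts was not tested. In such bulk samples, fewer cells of a type and less RNA per cell cannot be told apart. Hnrnpl, Lsm2, Prpf4 and Snrpn were near background in all 6 groups, so their differences below have no fold.

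**Figure D1:**
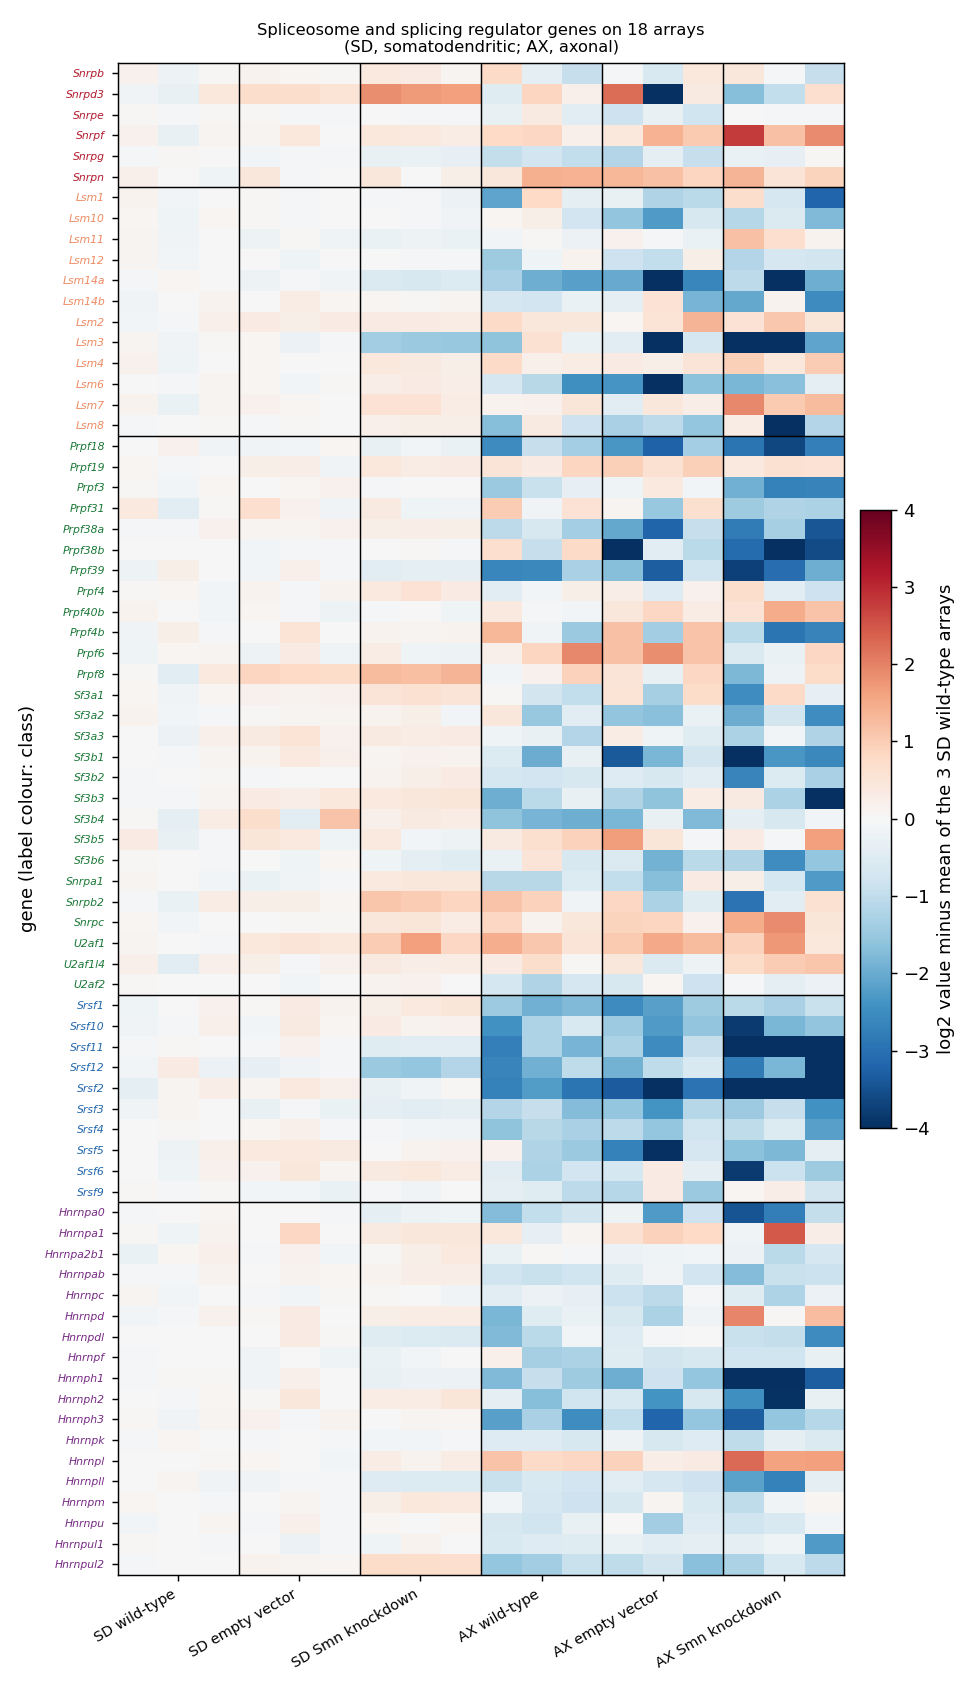
Each row is 1 of the 73 genes, grouped by class from top to bottom as Sm, Lsm, snRNP-specific, SR and hnRNP, and each column is 1 of 18 arrays in 6 groups. Colour gives the log2 value minus the mean of the 3 somatodendritic wild-type arrays, limited to 4 in either direction. Axonal columns vary far more between arrays than somatodendritic ones, and the SR rows are mostly blue in axons.

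In cell bodies, 25 of the 73 mRNAs differed between Smn knockdown and empty vector arrays (limma, adjusted p under 0.05 over all genes). With knockdown 16 were higher and 9 lower. The 25 are 34.2% of members, where 28.0% of all genes were called, 2267 genes higher and 2821 (15.5%) lower. With only genes above background in either group tested, 24 of 69 members and 44.2% of all such genes were called. Without that filter the median difference was 0.01 for members and -0.02 for all genes. By class, 1 of 6 Sm, 4 of 12 Lsm, 8 of 27 snRNP-specific, 0 of 10 SR and 3 of 18 hnRNP genes were higher. Falls numbered 1, 2, 2, 2 and 2 in the same order. Differences were mostly small: apart from Snrpd3, Lsm3 and Srsf12, each called member moved by less than 1 on the log2 scale. Of these calls, 13 held whichever of the 6 arrays was left out. The count dropped to 14 without knockdown replicate 2 (20.4% of all genes were called) and to 16 without empty vector replicate 3 (22.5%). One fit over all 18 arrays called 0 members and 0.566% of all genes.

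**Figure D2:**
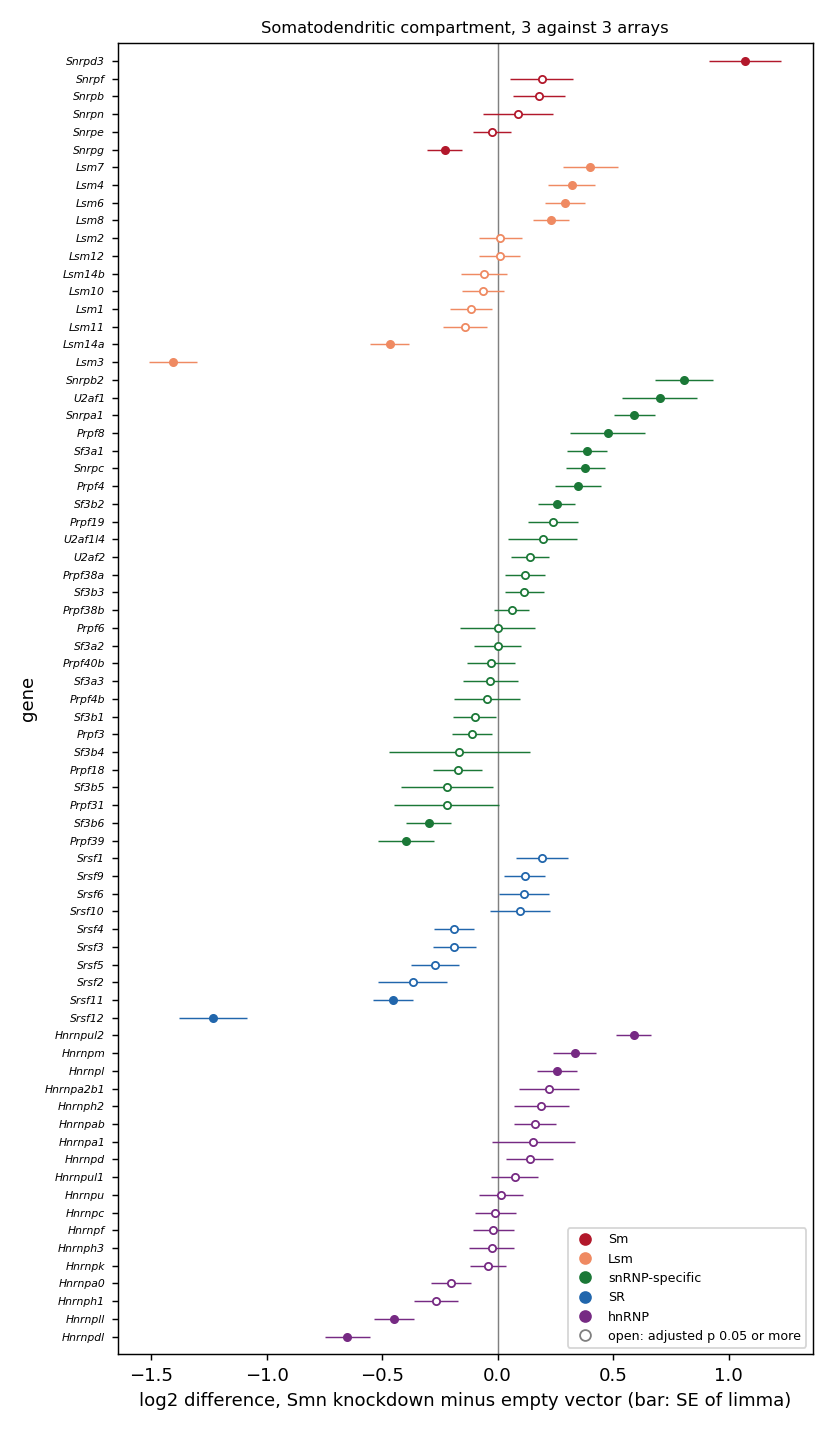
Points are log2 differences, Smn knockdown minus empty vector in the somatodendritic compartment, for the 73 genes by class, with limma's SE as bars and filled points at adjusted p under 0.05. Lsm3 (-1.41) and Srsf12 (-1.23) stand lowest and Snrpd3 (1.07) highest.

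Among the Sm proteins, which form the ring around spliceosomal small nuclear RNAs, Snrpd3 was higher in knockdown cell bodies. It measured 10.21, 10.05 and 9.98 on knockdown, 9.07, 9.07 and 8.89 on empty vector, and 8.23, 8.05 and 8.79 on wild-type arrays. The groups did not overlap, and the empty vector arrays lay between the others. The difference from empty vector was 1.07 (SE 0.16, 2.10-fold, adjusted p = 0.00028). A second Snrpd3 probe set of nearly the same mean level did not show it (-0.24, adjusted p = 0.12), nor did another, dimmer one (-0.10). Snrpg, whose chosen probe set may read several genes, was lower by a small amount (-0.23, SE 0.08, adjusted p = 0.044), and this call was lost whichever array was left out. Snrpb, Snrpe, Snrpf and Snrpn were not called, with differences of 0.18, -0.02, 0.19 and 0.09.

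Lsm3 had the largest fall of all 73 members. The LSM3 protein sits in both Lsm rings, the nuclear one that binds U6 small nuclear RNA and the cytoplasmic one that takes part in mRNA decay. Its 3 knockdown arrays read 9.05, 8.97 and 8.93, against 10.53, 10.22 and 10.41 with empty vector and 10.55, 10.29 and 10.49 in wild-type. Knockdown arrays lay over 1 log2 unit below every control array, while both control groups overlapped. The difference from empty vector was -1.41 (SE 0.10, 2.65-fold lower, adjusted p = 1.2e-06), on the only probe set for this gene. Its ring partners Lsm6 (0.29), Lsm7 (0.40), Lsm4 (0.32) and Lsm8, the subunit found in the nuclear ring only, (0.23) were higher by small amounts, at adjusted p of 0.025, 0.024, 0.034 and 0.04. Each of these rises was lost when some single array was left out. Lsm1, the subunit of the cytoplasmic ring, was not called (-0.11), nor were the U7 snRNP proteins Lsm10 (-0.06) and Lsm11 (-0.14). Lsm14a, a P-body protein outside the rings, was lower (-0.47, SE 0.08, adjusted p = 0.0013) on a probe set that may read several genes, but 3 other probe sets were not called (-0.07, -0.11 and 0.02).

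Among snRNP-specific proteins, Snrpa1 and Snrpb2, which pair with each other in the U2 snRNP, were higher. Snrpa1 measured 11.97, 12.01 and 12.02 on knockdown and 11.29, 11.42 and 11.51 on empty vector arrays, with wild-type at 11.67, 11.56 and 11.46. All knockdown arrays exceeded all controls, by 0.59 against empty vector (SE 0.09, 1.51-fold, adjusted p = 0.00036), and its 2 other probe sets rose as well (0.89 and 0.74). Its partner Snrpb2 measured 8.69, 8.62 and 8.46 against 7.85, 7.82 and 7.68 with empty vector and 7.56, 7.34 and 7.89 in wild-type. This difference was 0.81 (SE 0.13, 1.75-fold, adjusted p = 0.00052), and a second Snrpb2 probe set rose as well (0.84) while the third was called lower (-0.44, adjusted p = 0.045).

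Other snRNP-specific or associated proteins differed as follows. U2af1, the U2AF subunit that reads the end of the intron, was dim in controls (6.10, 6.19 and 6.10 with empty vector) and at 6.69, 7.31 and 6.50 on knockdown arrays, a rise of at least 1.26-fold (0.70, SE 0.16, adjusted p = 0.0063). Snrpc, a U1 snRNP protein, was higher by 0.38 (SE 0.09, adjusted p = 0.0052), from 7.96, 8.01 and 8.01 to 8.41, 8.44 and 8.26. Sf3a1 of the SF3a complex was higher by 0.39 (adjusted p = 0.0055), but 3 other probe sets for it were not called (-0.11, -0.14 and 0.10). Sf3b1, the SF3b scaffold that holds the branch point, was not called (-0.10), nor were Sf3a2, Sf3a3, Sf3b3, Sf3b4 and Sf3b5. Sf3b2 (0.26) was called higher and Sf3b6 (-0.30) lower, calls that were lost for 5 and 4 of the 6 left-out arrays. Prpf8, the core scaffold of the U5 snRNP, was higher by 0.48 (SE 0.16, adjusted p = 0.045), a call that each left-out array ended. Prpf39 was lower (-0.40, adjusted p = 0.028), a call lost for 4 of the 6 left-out arrays, and Prpf4, near background in both groups, was called higher, a call lost for 2.

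No SR protein rose against empty vector, and Srsf12 and Srsf11 fell. Srsf12, an SR protein described as an antagonist of the others, measured 7.72, 7.66 and 8.05 on knockdown arrays. Its empty vector values were 8.90, 9.08 and 9.15 and its wild-type values 9.11, 9.55 and 8.98, so every knockdown array lay below every control. The difference from empty vector was -1.23 (SE 0.15, 2.35-fold lower, adjusted p = 6.6e-05), on 1 probe set. Srsf11 read 10.28, 10.33 and 10.32 against 10.66, 10.91 and 10.71, a smaller difference without overlap (-0.45, SE 0.09, adjusted p = 0.0022), and 2 of its 3 other probe sets were lower too (-0.59 and -0.58). The classical SR proteins Srsf1 (0.19), Srsf2 (-0.37), Srsf3 (-0.19), Srsf4 (-0.19), Srsf5 (-0.27) and Srsf6 (0.11) were not called.

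Of the hnRNP genes, Hnrnpdl and Hnrnpll fell and Hnrnpul2 and Hnrnpm rose among those above background. Hnrnpdl, a paralog of hnRNP D, measured 13.01, 12.93 and 12.91 on knockdown and 13.46, 13.80 and 13.53 on empty vector arrays. The difference was -0.65 (SE 0.10, 1.57-fold lower, adjusted p = 0.00032), and 4 of its 6 other probe sets were also called lower. Hnrnpll, a relative of hnRNP L known for its part in CD45 splicing in lymphocytes, was lower by a smaller amount (-0.45, SE 0.09, adjusted p = 0.002) and on its second probe set as well (-0.59). Hnrnpul2, a SAF-A-like protein, rose from 9.68, 9.64 and 9.61 to 10.25, 10.24 and 10.21, by 0.59 (SE 0.07, adjusted p = 0.00011), and its second probe set rose too (0.47). The hnRNP M gene was higher by 0.33 (adjusted p = 0.016), a call lost without empty vector replicate 3, knockdown replicate 2 or knockdown replicate 3. Abundant Hnrnpa1, Hnrnpa2b1, Hnrnpc, Hnrnpk and Hnrnpu were not called, with differences of 0.16, 0.22, -0.01, -0.04 and 0.01.

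**Figure D3:**
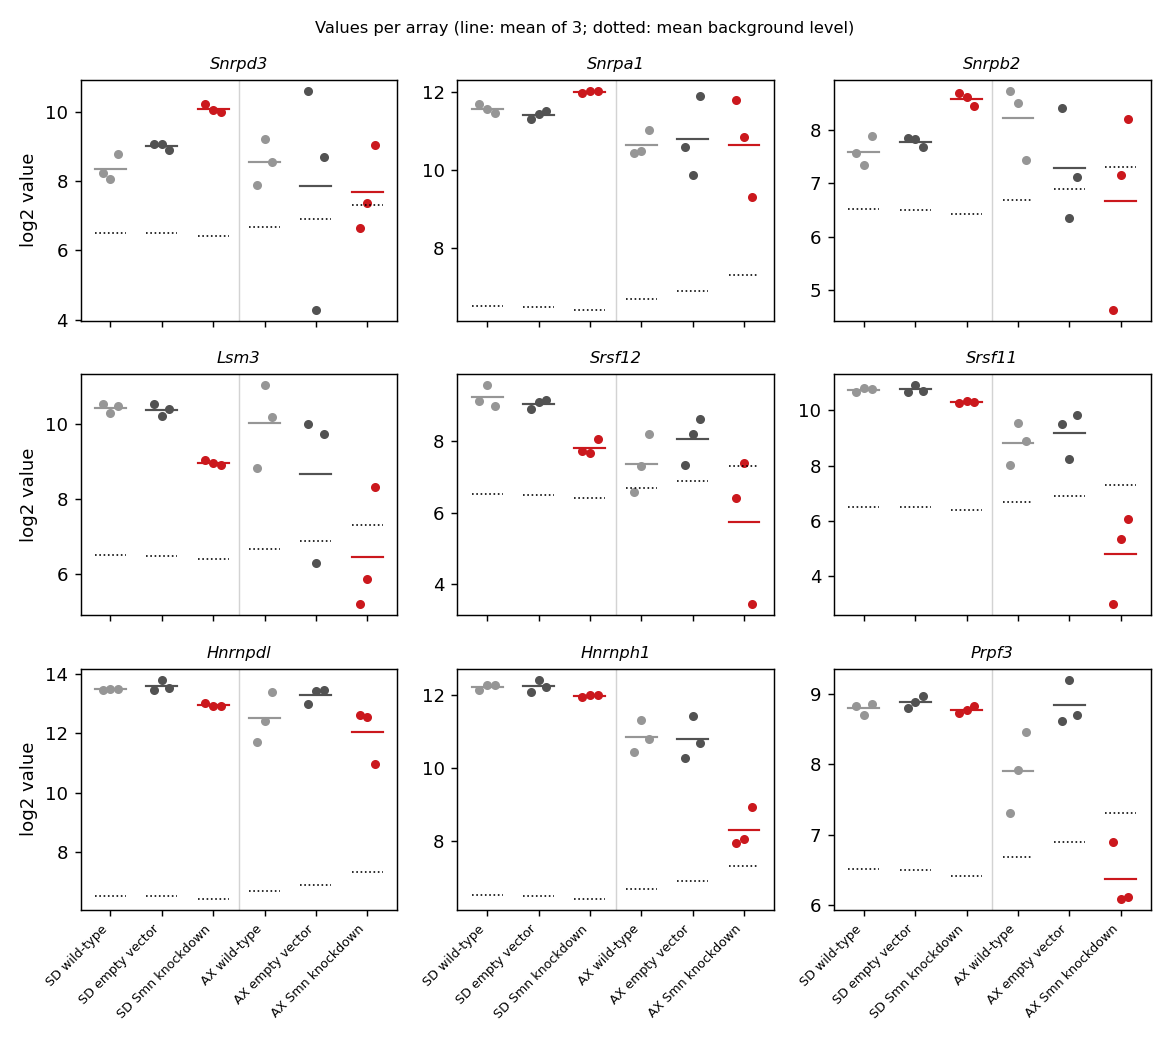
Log2 values of 9 members on every array, by group (SD, somatodendritic; AX, axonal), with group means as solid and mean background as dotted lines. In the somatodendritic groups the knockdown arrays of Snrpd3, Snrpa1 and Snrpb2 lie above and those of Lsm3, Srsf12, Srsf11 and Hnrnpdl below all 6 control arrays. In axons Srsf11, Hnrnph1 and Prpf3 lie lowest on the knockdown arrays.

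Markers of other cell types and the Gapdh 3' to 5' signal also differed between these somatodendritic groups. All 11 microglial markers were higher on knockdown than on empty vector arrays, with a mean level of 8.22 against 5.89 (7.66 in wild-type). Of 11 proliferation markers 9 were lower, with a mean of 6.78 against 7.97, as were 4 of 6 oligodendrocyte lineage and 5 of 8 astrocyte markers. The Gapdh 3' minus 5' signal, which grows as RNA or its amplified copies shorten, was 3.99 to 4.12 on knockdown, 3.53 to 3.68 on empty vector and 3.11 to 3.61 on wild-type arrays. The part of these differences in the splicing gene results was not tested.

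Against wild-type, which shares the knockdown arrays with the comparison above, 34 members were called, 23 higher and 11 lower (46.6%, where 36.0% of all genes were called, 15.6% higher and 20.4% lower). Without knockdown replicate 2 the count was 22 (28.6% of all genes were called), and in one fit over all 18 arrays it was 0 (0.792%). With only genes above background in either group tested, 37 of 69 members and 54.5% of all such genes were called. Lsm3 (-1.46, SE 0.10) and Srsf12 (-1.41, SE 0.15) again had the lowest values, and Snrpd3 (1.73, SE 0.16) the highest. Prpf8 stood 1.28 above wild-type (SE 0.16, adjusted p = 7.1e-05), with knockdown arrays at 9.91, 9.87 and 10.03 and wild-type at 8.71, 8.22 and 9.06. The empty vector arrays, at 9.52, 9.46 and 9.40, lay between them for this gene. Further calls included U2af1 (1.17), Sf3a1 (0.55), Sf3b3 (0.45) and Srsf6 (0.36) on the higher side, and Srsf3 (-0.40) and Hnrnpa0 (-0.24) on the lower side. The Srsf6 and Hnrnpa0 calls were each lost for 4 of 6 left-out arrays. Other probe sets of Prpf19, Prpf38a, Prpf39 and Snrpb2 were called in the opposite direction.

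Empty vector against wild-type, the comparison for the virus alone, gave 1 call among the 73 (1.37%, where 2.00% of all genes were called), which was Prpf8 at 0.80 (SE 0.16, adjusted p = 0.026). This call was lost without wild-type replicate 1 or any of the 3 empty vector arrays. Leaving out wild-type replicate 3 gave 6 calls among members, while the share called of all genes rose to 7.74%. Snrpd3 had the next lowest p (0.65, adjusted p = 0.055). Of the 11 microglial markers 8 were lower with empty vector than in wild-type, and their part in these values was not tested.

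Beyond the members, other parts of the splicing pathway had calls in both directions in knockdown cell bodies against empty vector. There 28.0% of all genes were called (15.5% lower), and 44.2% of those above background in either group. Of 58 other spliceosome genes 9 were higher and 5 lower, among them Pdcd7, a U11/U12 protein (0.65), Zmat2 (0.46), Crnkl1 (-0.76) and Ddx46, a U2-associated helicase (-0.63). Of 22 exon junction and mRNA export genes 6 were higher and 6 lower, with Thoc2 of the THO complex at 0.94, Casc3 at 0.53, Srrm2 at 0.74 and Ddx39b at -0.53. Of 50 other splicing regulators 7 were higher and 13 lower, led by the neuronal regulator Rbfox1 (-1.24), Elavl1 (-0.99), Nova1 (-0.62) and Qk (-0.65). Of 8 kinases of SR proteins, Srpk2 (0.64) and Clk3 (0.73) were higher and none was lower. Of 14 genes of the SMN complex and of Sm assembly, Wdr77 of the methylosome was higher (0.35) and Strap lower (-0.30), and the other 12 were not called.

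In axons no member passed the threshold between knockdown and empty vector (limma; 0 of 73, where 0.176% of all genes were called), while 13 members had an unadjusted p under 0.05, as did 3318 of the 18191 genes, a like share. Trend and robust options, or array weights, also gave 0. Removing dim genes gave 3 calls (6.16% of all genes then tested were called), centring the arrays gave 3 (1.32%) and one fit over all 18 arrays gave 17 (20.7%). The 3 lowest p-values belonged to Prpf3, Hnrnph1 and Srsf11, all lower on knockdown arrays. Prpf3, a protein of the U4/U6 snRNP, read 6.90, 6.09 and 6.12 with knockdown, 8.63, 9.21 and 8.70 with empty vector and 7.31, 7.92 and 8.47 in wild-type (-2.48 against empty vector, SE 0.38, at least 2.89-fold lower, adjusted p = 0.057). Its 3 knockdown arrays were all at background. Hnrnph1, a G-run binding splicing regulator, read 7.94, 8.05 and 8.93 against 10.29, 11.41 and 10.67 with empty vector and 10.45, 11.30 and 10.80 in wild-type (-2.49, SE 0.42, adjusted p = 0.064). Srsf11 read 3.00, 5.34 and 6.08, all at background, against 9.49, 8.25 and 9.84 with empty vector and 8.01, 9.52 and 8.89 in wild-type (-4.39, SE 0.81, at least 3.68-fold lower, adjusted p = 0.066). In each of these genes every knockdown array lay below every control array. The mean microglial marker level was 6.52 to 8.99 on axonal knockdown and 5.74 to 6.06 on axonal empty vector arrays, and its part in these values was not tested.

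By class, the lowest p among axonal Lsm genes was that of Lsm7, at 11.09, 10.22 and 10.43 with knockdown and 8.70, 9.62 and 9.45 with empty vector (1.32, SE 0.35, adjusted p = 0.12). Lsm3 differed by -2.20 with a large error (SE 1.16, adjusted p = 0.36), its knockdown arrays at 5.20, 5.88 and 8.34 and its empty vector arrays at 10.00, 6.29 and 9.73, which overlap. Srsf12 likewise overlapped only narrowly in value, at 6.41, 7.39 and 3.45 against 7.34, 8.20 and 8.60 (-2.30, SE 0.94, adjusted p = 0.25). The Sm genes had differences between -0.20 and 1.00, none at an unadjusted p under 0.05.

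Axonal knockdown against wild-type, which reuses the same knockdown arrays, also gave 0 calls (limma; 0.0990% of all genes were called), with 18 members and 3803 of all 18191 genes at an unadjusted p under 0.05. Array weights gave 4 calls (4.93% of all genes), removing dim genes 2 (3.67%), centring 2 (1.01%) and one fit over all 18 arrays 21 (24.6%). Hnrnph1 (-2.55, adjusted p = 0.059), Srsf11 (-4.00, adjusted p = 0.066) and Srsf2 (-1.75, adjusted p = 0.074) had the lowest p. Prpf38b, a protein of the activated spliceosome, read 6.76, 4.61 and 6.25 with knockdown and 10.50, 8.90 and 10.60 in wild-type (-4.13, SE 1.06, adjusted p = 0.086), but its empty vector arrays read 5.39, 9.41 and 8.76. Between empty vector and wild-type axons 0 members were called (limma; 0% of all genes) and 2 members had an unadjusted p under 0.05, against 603 of all 18191 genes.

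Whether the knockdown difference from empty vector was itself unlike between axons and cell bodies was tested as an interaction over all 18 arrays. This fit shares 1 spread over both compartments, although axonal arrays varied more, so its p-values may be too small for axonal differences. For axonal knockdown against empty vector, the fit of axonal arrays called 0 members (0.176% of all genes) and one over all 18 arrays called 17 (20.7%). In all, 4 members passed (5.48%, where 6.77% of all genes were called). The axonal difference was more negative for Prpf3 (-2.48 in axons, -0.11 in cell bodies; interaction -2.37, SE 0.39, adjusted p = 0.0053), Hnrnph1 (-2.49 and -0.26; interaction -2.22, SE 0.43, adjusted p = 0.011) and Srsf11 (-4.39 and -0.45; interaction -3.93, SE 0.86, adjusted p = 0.018). Hnrnpl was the fourth (interaction 1.09, adjusted p = 0.043), near background in every group. Prpf3 and Srsf11 were at background in knockdown axons, so their axonal differences and interactions include values below that level and their exact size is uncertain. Prpf3 and Hnrnph1 were called with any array left out, and Srsf11 was lost without somatodendritic knockdown replicate 2 (adjusted p = 0.052). A second Srsf11 probe set was called in the same direction (-3.29), 2 dim ones were not (0.10 and -0.24), and the second one of Hnrnph1 was not called (-0.77, adjusted p = 0.24). The count was 2 without somatodendritic knockdown replicate 2 (2.12% of all genes were called) and 8 without axonal empty vector replicate 2 (14.5%). It was 9 and 7 without axonal knockdown replicates 2 and 3 (12.9% and 9.42% of all genes).

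**Figure D4:**
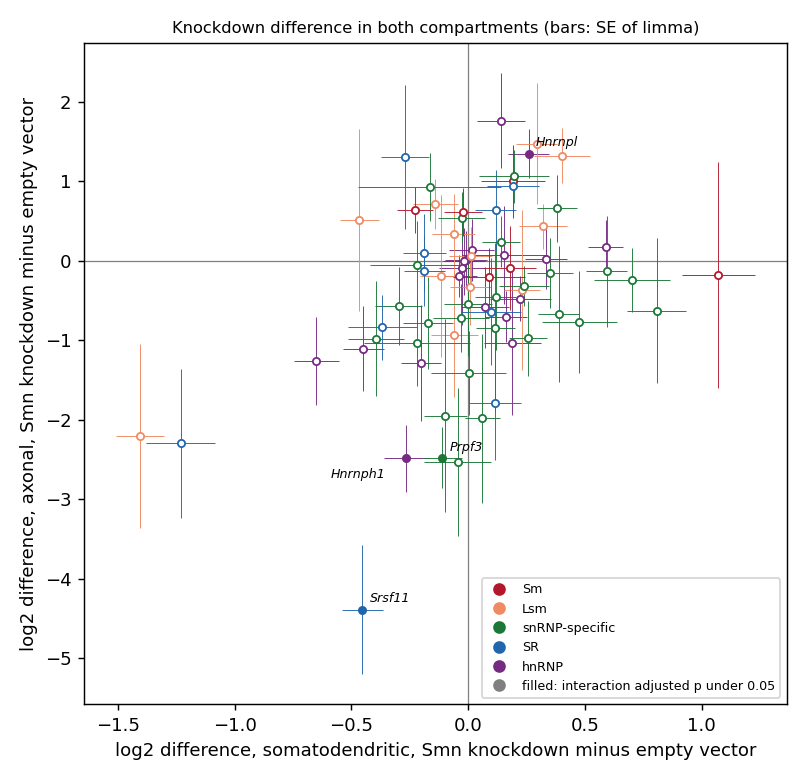
Each point is a gene, with its log2 difference between Smn knockdown and empty vector in cell bodies (horizontal) and in axons (vertical), and limma's SE as bars. The filled points are the 4 members whose differences were called unlike, with Srsf11 lowest at -4.39 in axons.

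With the control arrays of both kinds averaged, axons had lower levels of many members than cell bodies. In the values as deposited, 43 of 73 were called, 9 higher and 34 lower (58.9%, where 61.6% of all genes were called, 35.7% higher and 25.9% lower). The median difference was -0.64 for members and 0.18 for all genes. Among the 10227 genes above background in at least 1 control group, the medians were alike, at -0.65 for members and -0.70 for all. Of those genes 10.1% were called higher and 42.2% lower, with 2 members higher and 27 lower. Because the compartments were normalized apart, the split into higher and lower depends on scaling. With all 18 arrays quantile-normalized together, 26 members were called, 14 higher and 12 lower, where 22.3% of all genes were higher and 11.6% lower. Members called the same way in both numbered 8 higher and 12 lower, and 0 were called in opposite directions. Of the 8 higher ones, Hnrnpl, Snrpf, Snrpn and U2af1 were near background on both sides. The median over all genes was nearly the same in both scalings (0.18 and 0.20), whereas that of members moved to -0.0037.

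**Figure D5:**
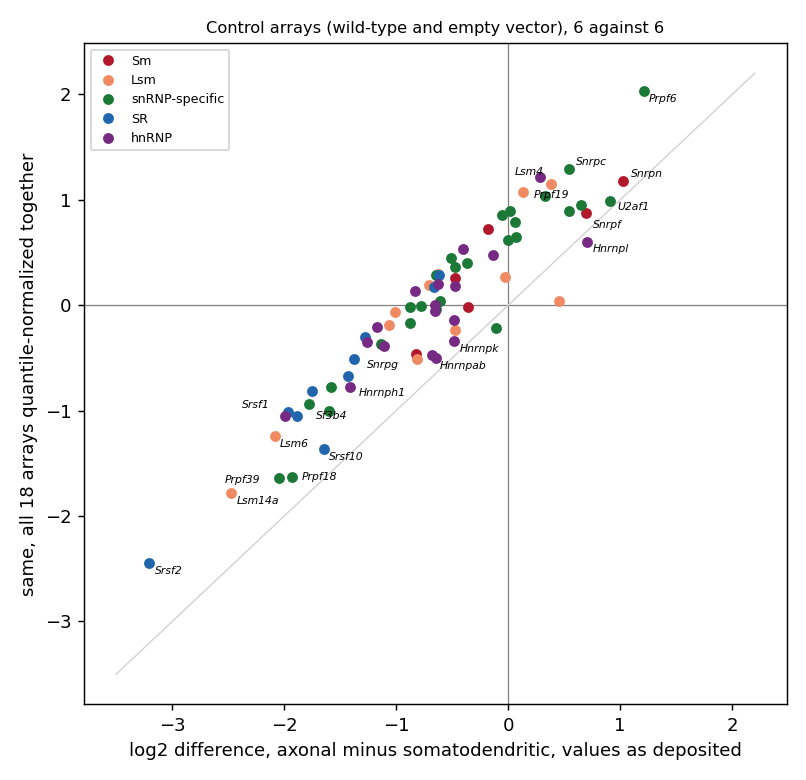
Each point is a gene, with its log2 difference between axonal and somatodendritic control arrays in the deposited values (horizontal) and after joint quantile normalization of all 18 arrays (vertical). Named genes were called in both, Srsf2 lowest and Prpf6 highest, and most points lie above the line of equal values.

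SR protein mRNAs were the class with the lowest median in axons (-1.54). As deposited, 8 of 10 were called lower and 0 higher, where 25.9% of all genes were lower and 35.7% higher. Of genes above background in at least 1 control group, 42.2% were lower. After joint normalization 3 were lower and 0 higher, where 11.6% of all genes were lower and 22.3% higher. Srsf2, a broadly acting SR protein, read 7.77, 8.26 and 7.55 on wild-type and 7.17, 6.13 and 7.54 on empty vector axonal arrays. In cell bodies it read 10.13, 10.58 and 10.75, and 10.60, 10.89 and 10.70, so no axonal array came within 1 log2 unit of any somatodendritic one. The difference was -3.20 (SE 0.22, at least 8.13-fold lower, adjusted p = 3.6e-07) and -2.45 after joint normalization. Its chosen probe set may read several genes, and of 3 others 1 was lower (-1.14), 1 was not called (-0.18) and 1 dim one was higher (0.90). Srsf1, an SR protein that also shuttles to the cytoplasm, read 9.33, 8.88 and 9.02 and 8.27, 8.60 and 9.38 in axons against 10.62 to 11.12 in cell bodies (-1.96, SE 0.17, 3.90-fold lower, adjusted p = 2.9e-06; -1.01 after joint normalization). Of its 6 other probe sets, 5 were called lower and 1 dim one higher. Srsf10, a regulator active in its dephosphorylated form, was lower in both scalings (-1.65 and -1.37), and all 3 of its other probe sets were lower. Srsf5 (-1.89), Srsf11 (-1.75), Srsf12 (-1.43), Srsf3 (-1.38) and Srsf4 (-1.28) were called as deposited but not after joint normalization, and Srsf6 and Srsf9 were called in neither. The Srsf12 call was lost for 3 of 12 left-out arrays.

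Of the Lsm genes, Lsm14a (-2.47, at least 5.45-fold) and Lsm6 (-2.09, at least 3.59-fold) were lower in axons in both scalings, and Lsm4 was higher (0.38 as deposited). For Lsm14a and Lsm6, 2 of 3 other probe sets were lower too and 1 dim one was called higher (0.69 and 0.94). The Lsm4 call was lost when any of 6 single control arrays was left out. Of the Sm genes, Snrpg read 11.74 to 12.56 in axons and 12.80 to 12.98 in cell bodies (-0.82, SE 0.13, adjusted p = 0.00028), but the difference was 0.20 and not called on probe sets that read a single gene. Snrpe had a difference of -0.36 as deposited, a call lost when any of 10 single arrays was left out, and Snrpb was not called (-0.18).

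Among snRNP-specific genes, Prpf18, a second-step splicing factor, and Prpf39, a U1-associated protein, were lower in both scalings (-1.93 and -2.05 as deposited, both at background in axons), although a dim second Prpf39 probe set was higher (1.09). Sf3b4 of the SF3b complex was lower as well (-1.78, 3.43-fold, adjusted p = 0.00028) on a probe set that may read several genes, but a second one was not called (-0.23). Prpf6, the U5 protein that bridges to U4/U6, was higher, at 8.60, 9.26 and 10.32 in wild-type and 9.56, 10.26 and 9.53 in empty vector axons against 8.17 to 8.70 in cell bodies (1.21, SE 0.29, 2.31-fold, adjusted p = 0.0032). All but 1 of the 6 axonal arrays lay above every somatodendritic control. Its chosen probe set may read several genes, and of 2 others 1 was called higher (0.59) and 1 was not (0.45). Prpf19, a ubiquitin ligase of the spliceosome, was higher by 0.65 and Snrpc by 0.54. The Prpf19 call was lost without probe sets that may read several genes (0.17, adjusted p = 0.44), and the Snrpc call was lost when any of 10 single arrays was left out.

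Of 18 hnRNP genes, 11 were lower and 1 (Hnrnpl, near background) higher as deposited, where 25.9% of all genes were lower and 35.7% higher. Of genes above background in at least 1 control group, 42.2% were lower. After joint normalization 3 hnRNP genes were lower and 3 higher, where 11.6% of all genes were lower and 22.3% higher. Hnrnph1 (-1.41, SE 0.21, 2.66-fold lower), Hnrnpab (-0.68) and Hnrnpk (-0.48) were lower in both, although a second Hnrnph1 probe set was not called (-0.16). Hnrnph3 was lower by 1.99 log2 units in the deposited values, at 7.32 to 9.49 in axons and 10.32 to 10.66 in cell bodies, and did not pass after joint normalization (-1.05, adjusted p = 0.057). Hnrnpa1 and Hnrnpa2b1, hnRNP proteins known to be carried with RNA granules, were not called as deposited (0.28 and -0.14) and were higher after joint normalization (1.22 and 0.48). Hnrnpul2 differed between probe sets: the chosen one was lower (-1.26) and a dimmer one higher (1.48).

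In knockdown cultures, axons against cell bodies gave 49 calls, 8 higher and 41 lower (67.1%, where 61.7% of all genes were called, 34.0% higher and 27.7% lower). Among genes above background in at least 1 of the groups, 15.5% were called higher and 45.8% lower, with 5 members higher and 39 lower. After joint normalization the calls were 29, 14 higher and 15 lower, where 31.4% of all genes were higher and 16.9% lower. Srsf2 (-4.25, at least 8.29-fold), Srsf11 (-5.50, at least 7.98-fold), Sf3b1 (-4.06, at least 8.33-fold) and Prpf38b (-3.96, at least 5.75-fold) had axonal levels at background. For 7 of the 49 called members, Prpf38b among them, another probe set was called in the opposite direction. Hnrnph1 was above background on both sides, at 7.94, 8.05 and 8.93 in axons and 11.94, 12.00 and 11.99 in cell bodies (-3.67, SE 0.30, 12.7-fold lower, adjusted p = 1.2e-06). Higher in knockdown axons were Prpf40b (1.15), Snrpf (1.59), Lsm11 (0.90), Lsm7 (0.92), Snrpc (0.89) and U2af1l4 (0.65), beside the near-background Hnrnpl and Snrpn. With single arrays left out, the U2af1l4 call was lost for 5 of 6, the Snrpn call for 4 and the Snrpc call for 3.

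In control axons as deposited, 35.7% of all genes were called higher and 25.9% lower. Of the 10227 genes above background in at least 1 control group, 10.1% were higher and 42.2% lower. The other splicing genes also had more lower than higher calls there. These were 21 lower and 6 higher of 58 other spliceosome genes, 25 and 6 of 50 regulators, 8 and 3 of 22 exon junction and export genes, 2 and 1 of 8 SR kinases, and 6 and 2 of 14 SMN complex and Sm assembly genes. Isy1 (-2.93), Qk (-2.44), Sfpq (-2.44), Upf2 (-2.47) and Tgs1 (-2.19), which makes the trimethyl cap of small nuclear RNAs, were among those lower. Ptbp1, the polypyrimidine tract binding protein of non-neuronal cells, was higher (1.03). Of 11 proliferation markers, 0 were above background on every array of any axonal group. Their mean still reached 7.28 on 1 axonal empty vector array, where background in that group was 6.59 to 7.22. In wild-type axons, 5 of 11 microglial and 2 of 8 astrocyte markers were above background on every array. Between control axons and cell bodies, 6 of 8 astrocyte, 4 of 6 oligodendrocyte lineage, 8 of 11 proliferation and 6 of 8 neuronal markers were lower. Their list medians lay between -2.64 (astrocyte) and -1.22 (neuronal). Positive medians were those of motoneuron (0.25), microglial (0.46), fibroblast (0.56) and endothelial (0.71) markers. Of 5 nuclear RNAs such as Malat1, 1 was higher and 0 lower (median 0.51), and 4 were above background in each axonal control group. The Gapdh 3' minus 5' signal ran from 1.44 to 3.91 on axonal control arrays, and the mean log2 signal of the BioC and BioD spike-in controls was 12.64 to 14.28 there against 10.64 to 10.96 in somatodendritic controls. The part of all these differences in the compartment results was not tested.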

How the data were processed

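RNA of somatodendritic and axonal compartments was measured on Affymetrix mouse expression arrays, per the labels. The deposited values are log2 expression values of 45101 probe sets made by the authors. The software behind them is not given in the labels or files used here. Probe sets with 1 gene symbol were kept (34958), and the one with the highest mean over 18 arrays stood for its gene. No filter on dim genes was applied.

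Tests were run in limma 3.58.1 under R 4.3.3 (lmFit, eBayes), with p adjusted by Benjamini-Hochberg over 18191 genes and called at 0.05. Comparisons within a compartment used its 9 arrays, the others all 18. The script was tested on simulated data. With 3 arrays per group, their number limits precision. Alternatives were other probe set choices, a filter on dim genes, centring, trend, array weights, joint quantile normalization, 1 fit for all arrays, a replicate block and left-out arrays.

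The members, the lists and the naming rule were chosen with earlier results of these data known. The rule named called members whose arrays did not overlap first, the 4 largest rises and falls per class, the 3 lowest p where none was called, and up to 4 genes with the lowest p per other list. Promoters are RefSeq's, GRCm38.p6. One gene is not reported here.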

Additional observations from a re-analysis of the deposited data

Results flagged for a closer look

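For 4 members the knockdown difference from empty vector was unlike in axons and cell bodies, by the interaction term over 18 arrays (limma, adjusted over all genes). These are 5.48% of members, where 6.77% of all genes were called. The interaction was -2.37 for Prpf3 (adjusted p = 0.0053), -2.22 for Hnrnph1 (adjusted p = 0.011), -3.93 for Srsf11 (adjusted p = 0.018) and 1.09 for Hnrnpl (adjusted p = 0.043). Prpf3 and Srsf11 were at background in knockdown axons. Hnrnpl was near background in every group, and its call was lost for 8 of 12 left-out arrays. The interaction fit shares 1 spread over both compartments, although axonal arrays varied more, and the fit of axonal arrays alone called 0 members. Groups of 3 arrays were too small to look for single outlying samples.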

How the results depend on the processing

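Counts of called members moved with how the spread was estimated. One fit over all 18 arrays gave 0 calls for somatodendritic knockdown against empty vector or wild-type (0.566% and 0.792% of all genes were called). It also gave 0 for somatodendritic empty vector against wild-type (0.0385%). For axonal knockdown against empty vector and wild-type it gave 17 and 21 (20.7% and 24.6%). Empty vector against wild-type in cell bodies gave 2 calls with trend and robust options (2.09% of all genes), 3 with array weights (2.62%) and 0 with a replicate block (0.902%). For axonal knockdown against empty vector, removing dim genes or centring gave 3 calls each (6.16% and 1.32% of all genes tested). Against wild-type they gave 2 each (3.67% and 1.01%), where array weights gave 4 (4.93%). Joint quantile normalization gave 26 calls between compartments in controls (33.9% of all genes) and 29 in knockdown (48.3%). Axonal knockdown replicate 1 and axonal empty vector replicate 2 were each the least correlated of its own group with the somatodendritic controls. Without both, 9 interactions of members were called (16.6% of all genes). With single arrays left out, the counts for somatodendritic knockdown ranged from 14 to 21 against empty vector (20.4% to 25.5% of all genes). Against wild-type they ranged from 22 to 34 (28.6% to 34.7%), and for the vector from 0 to 6 (1.1% to 7.74%). Between compartments they were 30 to 41 in controls (55% to 62.5%) and 35 to 46 in knockdown (53.3% to 61.2%). The interaction gave 2 to 9 (2.12% to 14.5%), and the 3 axonal comparisons stayed at 0 (at most 1.04% of all genes). The cause was not tested.

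Directions turned for some members. Against wild-type in cell bodies, the mean of all probe sets gave -0.18 for Prpf38a and 0.025 for Prpf39, and leaving out probe sets that may read several genes gave 0.030 for Snrpg. Between compartments in controls, joint normalization gave 0.14 for Hnrnpd, 0.18 for Hnrnpm, 0.21 for Hnrnpu, 0.36 for Prpf3, 0.042 for Sf3b2 and 0.29 for U2af2. The mean of probe sets gave 0.11 for Hnrnpul2 and 0.095 for Sf3a2, and leaving out shared probe sets gave 1.07 for Sf3a2 and 0.20 for Snrpg. In knockdown, joint normalization gave 0.11 for Hnrnpm, and leaving out shared probe sets gave 0.81 for Sf3a2. Against empty vector in cell bodies, Snrpd3 (0.24, adjusted p = 0.093), Lsm14a (-0.16) and Sf3a1 (0.06) were not called on the mean of their probe sets. Of 18 correlations between the deviations of same-numbered arrays, 1 exceeded 0.1. Differently numbered arrays were not correlated for reference, so this cannot show whether same-numbered arrays came from matched cultures. Knockdown numbers come from Nr titles and control numbers from Gr titles, so equal numbers across them need not mean matched cultures. With the replicate block 0 members were called in the axonal comparisons (0% of all genes) and 48 between compartments in controls (62% of all genes). No paired analysis was possible for the somatodendritic knockdown because its arrays share no numbers with the other groups.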
